A study of Homo sapiens with 12 samples.

Results

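The genes described here are 39 genes that copy DNA or prepare it for copying at the transition from G1 to S phase, measured by RNA sequencing in 22RV1 cells, a human prostate cancer line derived from a xenograft tumour. They were chosen by name, from a list of replication genes that are switched on at G1/S, and matched to the tables by gene identifier. The members and the other gene lists were chosen with earlier results of these data known. Counts from these lists set against all genes are therefore descriptions. All 39 were found among the 61860 genes of each table of counts, and all 39 passed the filter on low counts in both experiments. By its title the study asks how phosphorylated RB acts on the transcription factor ETS1 and on sensitivity to CDK4/6 inhibitors. Its 12 libraries form 4 groups of 3: cells given siRNA against ETS1, the controls of that knockdown, cells given siRNA against ZNF783, which encodes a zinc finger protein, and a separate set of controls for that second knockdown. All groups are the same cell line in the same medium, and the labels name no drug. The siRNA sequences, the control oligonucleotide, the time of harvest and whether replicates were separate cultures are not given in the sources used here, so the p-values rest on a spread between libraries that may be technical.

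Before S phase, the origin recognition complex with CDC6 and CDT1 loads the MCM2 to MCM7 ring onto origins, a step called licensing. At the start of S phase CDC45 and the GINS complex join the ring to form the active helicase, polymerase alpha with primase lays down primers, and polymerase epsilon extends the leading strand while PCNA, loaded by RFC, clamps polymerases to DNA. Most of these genes are classic targets of E2F factors, which unphosphorylated RB holds back until CDK4/6 and CDK2 phosphorylate it.

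Totals ran from 13518177 to 48996691 counts per library. The 39 genes together took 0.518, 0.572 and 0.575% of counts in ETS1 siRNA replicates 1 to 3 against 0.551 to 0.553% in their controls, and 0.489 to 0.494% with ZNF783 siRNA against 0.510 to 0.514% in its controls. Each member had at least 133 counts in every library. ETS1 itself had at most 3 counts in any library, controls included, which is the floor taken for an undetected gene, so its knockdown could not be measured. ZNF783 measured 28.7, 27.4 and 28 CPM with its own siRNA and 33.8, 34.9 and 35.7 CPM in the controls, and fell (log2 fold change -0.31, SE 0.0553, adjusted p = 2.46e-05, edgeR), with 29.5% of its exon length overlapping another gene. CPM are counts scaled to a library of 1e+06 after scaling of libraries by trimmed mean of M values (TMM). ETS1 siRNA replicate 1 stood apart: divided by its degrees of freedom, the chi-square between its counts and those of the other replicates of its group was 40.3 and 38.9, compared with 1.82 between those 2. Results with ETS1 siRNA are therefore given with and without it. All 11 prostate luminal markers were above 3 counts in every library, with summed levels of 3860 to 3887 CPM with ZNF783 siRNA, 4167 to 4185 CPM in its controls, 4061 to 4124 CPM with ETS1 siRNA and 4151 to 4162 CPM in its controls. The 14 markers of leukocytes, endothelium and fibroblasts summed to 37.7 to 41.8 CPM with ZNF783 siRNA, 45.4 to 49.3 CPM in its controls, 61.8 to 72.5 CPM with ETS1 siRNA and 61.8 to 64.3 CPM in its controls, and CD3E was at 0 counts in every library.

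The promoters were examined because many genes of this group are known E2F targets. RefSeq windows (build GRCh38.p14) from 250 bases before to 50 after each start were matched by symbol for 35 of the 39 genes. An E2F motif (TTTGGCGC, TTTCGCGC, TTTCCCGC or TTTGCCGC, either strand) was present for 21 of 35 genes (60%), against 3.99% of all 27305 genes with windows of the same length (3.31% of the 35116 windows). CCAAT, the letters bound by NF-Y, was present for 21 of 35 (60%) against 39.7% of genes (34.6% of windows). TTTGAA, the core of the CHR element of mitotic genes, was present for 2 of 35 (5.71%) against 18.2% of genes (15.2% of windows). CCGGAAGT, a common ETS factor motif, was present for 3 of 35 (8.57%; GINS3, POLA1 and RFC4) against 4.95% of genes (4.14% of windows). A gene can have several windows and was counted where any held the letters, and such a match describes letters, not a bound site. Of the 13 matched genes that fell with ZNF783 siRNA, described further on, 9 held the E2F motif and 11 held CCAAT. Over all 35 matched members 21 held each, and whether either motif goes with the fall was not tested. The 5 windows printed here show the E2F motif in capitals with up to 26 bases on each side, written 5′ to 3′ on the strand of the gene, for the genes whose shown bases lie upstream of the start and outside every annotated exon. The first 4 fell with ZNF783 siRNA and CDC25A is the one that did not. Their positions are chr6:52284883-52284942 (minus strand), chrX:24693755-24693814 (plus), chr2:135876496-135876555 (minus), chr20:5126648-5126707 (minus) and chr3:48188428-48188487 (minus).
MCM3: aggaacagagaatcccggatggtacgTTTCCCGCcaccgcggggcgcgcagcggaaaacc
POLA1: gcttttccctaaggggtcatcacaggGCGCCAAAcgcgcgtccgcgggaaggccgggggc
MCM6: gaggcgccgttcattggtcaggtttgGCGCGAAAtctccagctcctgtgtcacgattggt
PCNA: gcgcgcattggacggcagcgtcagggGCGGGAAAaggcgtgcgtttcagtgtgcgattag
CDC25A: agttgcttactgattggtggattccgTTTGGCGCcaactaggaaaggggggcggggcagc
Read on the other strand, GCGCCAAA, GCGCGAAA and GCGGGAAA in these windows are TTTGGCGC, TTTCGCGC and TTTCCCGC. POLA1 and CDC25A thus hold the same 8 letters on opposite strands, at 137 and 44 bases before the start.

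Levels differed widely between members. Levels of different genes are compared per kilobase of exon, as CPM divided by exon length, and summarised as mean ± SD over 3 control libraries. Exon length is that of all annotated exons of a gene together, used in these cells or not. PCNA, the sliding clamp, was highest at 224 ± 3.31 CPM per kilobase in the ETS1 controls and 198 ± 5.78 in the ZNF783 controls. POLA2, the accessory subunit of polymerase alpha, was lowest at 1.91 ± 0.0621 and 1.88 ± 0.0493, so the range spanned 117-fold and 106-fold. The medians over the 39 genes were 22.7 and 20.1 CPM per kilobase. Members of one complex were not at one level on this measure. The MCM2 to MCM7 subunits, which are present once each in the ring, ran from 19.0 for MCM5 to 138.9 for MCM7 in the ETS1 controls, and from 18.9 to 122.5 in the ZNF783 controls, again with MCM5 lowest and MCM7 highest. MCM5 has the longest exon length of the ring, 7338 bases against 3650 for MCM3, which lowers its value on this measure. The 4 GINS subunits ran from 7.66 for GINS4 to 22.7 for GINS2 in the ETS1 controls. Of the 39 genes 17 overlap another gene, 15 of them on the opposite strand, which the counting did not separate, and 8 over more than 10% of their exon length. The highest overlap was 46.6%, for TYMS, followed by POLA2 at 35.1%, and levels of these genes are uncertain.

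The order was nearly the same in both control groups. The Spearman correlation of the 39 levels was 0.986 (a description across genes, which share libraries), and no gene moved more than 5 places. PCNA, MCM7 and SLBP, which binds the stem-loop of histone mRNA, held the first 3 places in both. RRM1 (77.3 ± 0.669) and FEN1 (76.8 ± 1.47) overlapped in the ETS1 controls. The same was true of RRM2 (68.5 ± 1.65), RFC2 (67.8 ± 0.175) and TK1 (67.1 ± 1.63). Of 38 neighbouring pairs in the order, 19 had overlapping libraries in the ETS1 controls and 18 in the ZNF783 controls, so much of the middle of the order is not resolved.

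**Figure D1:**
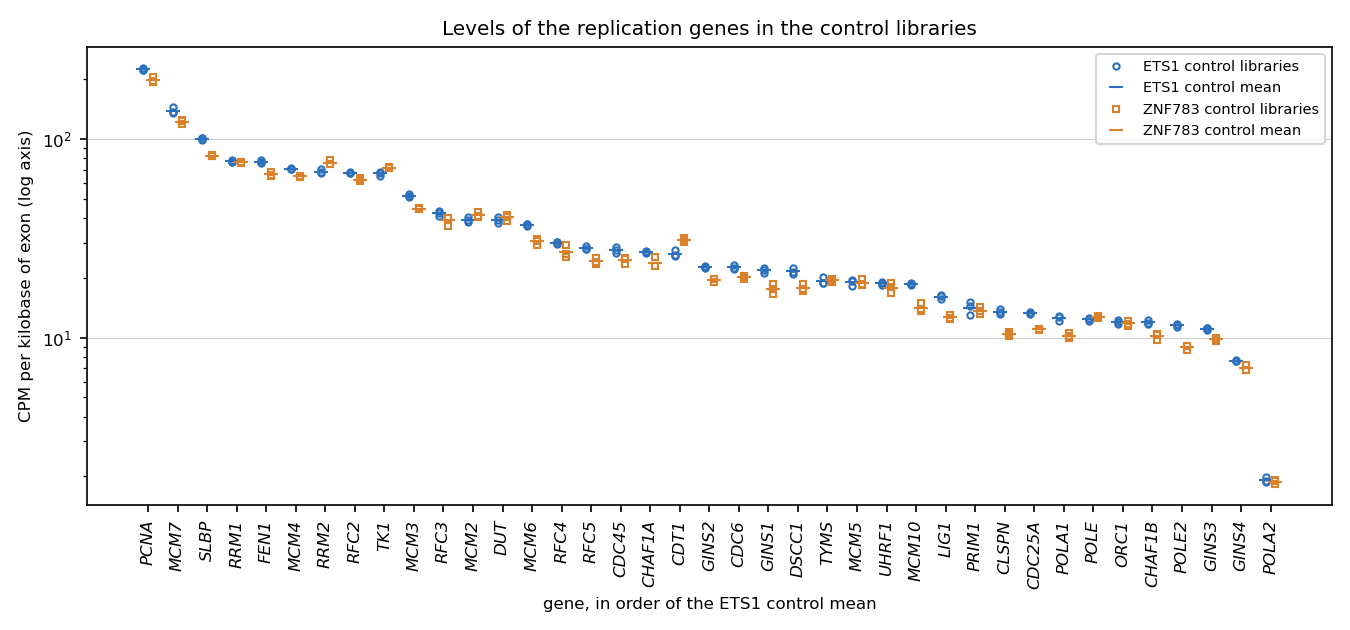
Level of each of the 39 genes in CPM per kilobase of exon (log axis) in the 3 ETS1 control libraries (circles) and 3 ZNF783 control libraries (squares), with group means as short bars. PCNA is highest and POLA2 lowest in both control groups, and no gene moves more than 5 places.

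The first comparison asked how the replication genes differ when ZNF783 is targeted. With ZNF783 siRNA 14 of the 39 genes fell, against 13.8% of all genes tested, and 1 of 39 rose, against 11.3% (edgeR quasi-likelihood test, adjusted p below 0.05 over 17630 genes). The genes that fell were TK1, CLSPN, UHRF1, CDC45, POLA1, MCM3, FEN1, RRM2, MCM7, CDC6, MCM6, MCM5, MCM2 and PCNA, and GINS4 rose. Every one of these changes was smaller than 20%. The median log2 fold change of the 39 was -0.04 against 0.00 for all genes tested. In 16 of 39 genes all 3 siRNA libraries lay below all 3 controls, against 19.8% of all genes, and in 5 they lay above, against 18.3%. Set against the same control mean, the siRNA libraries had 24, 25 and 28 of 39 members below it in replicates 1 to 3. The control libraries themselves had 17, 21 and 22 below, and the share of all genes was not computed.

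**Figure D2:**
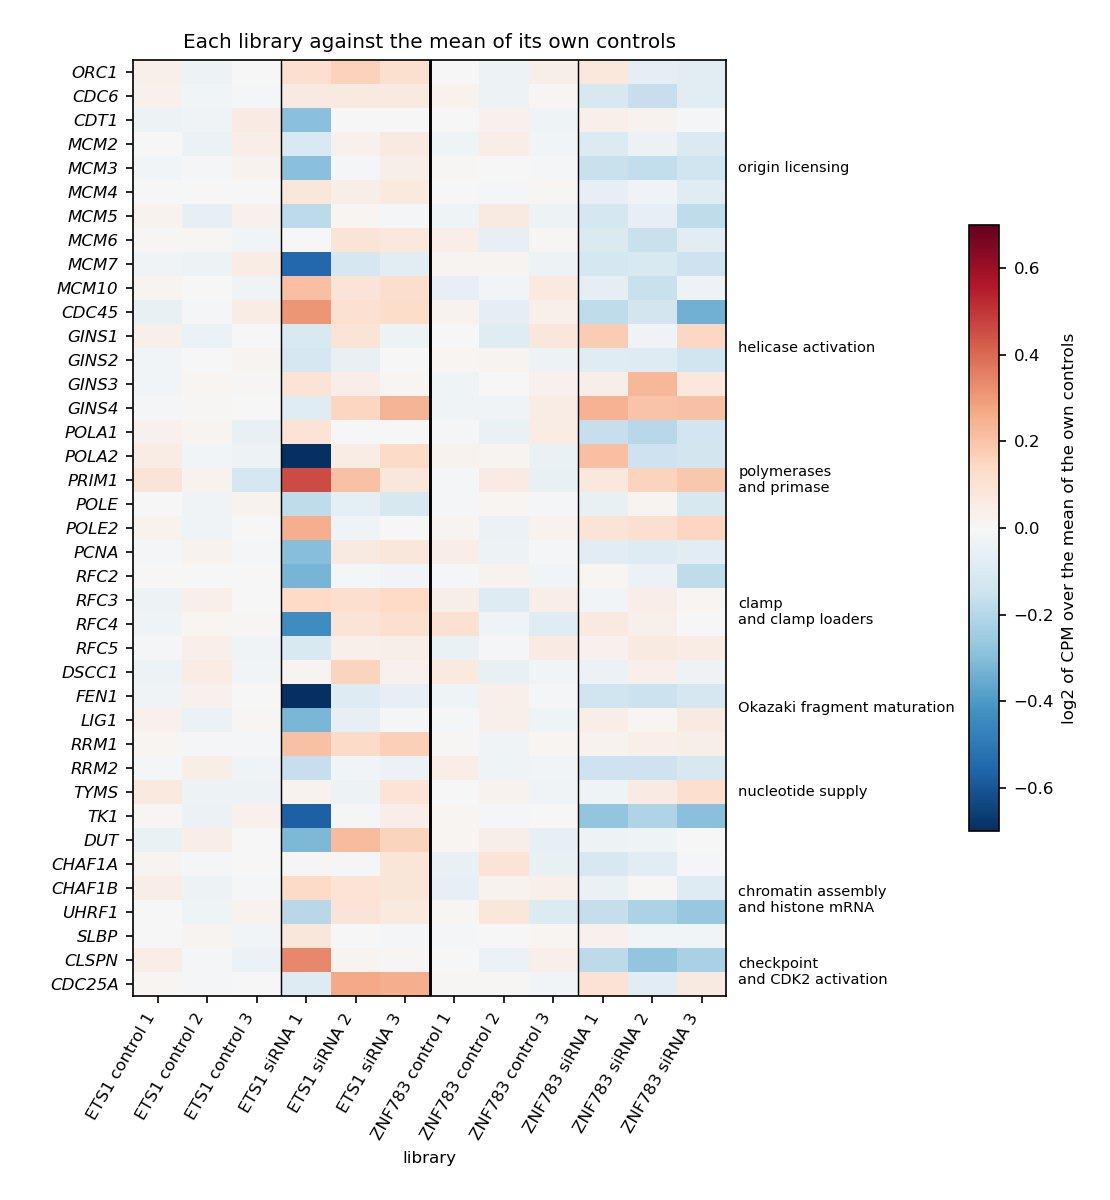
Each cell gives the log2 of a gene's CPM in 1 library over the mean of its own 3 controls, with genes grouped by role and libraries by experiment (red above, blue below). The ZNF783 siRNA columns are mostly pale blue for licensing genes, while the ETS1 siRNA replicate 1 column stands apart from replicates 2 and 3.

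Of 9 licensing genes 6 fell and 0 rose, against 13.8% and 11.3% of all genes tested. With DESeq2 2 fell (MCM3 and MCM7), against 1481 of all 17630 genes. With the GC and length correction described further on 4 fell and 1 rose, against 10.8% and 8.92% of all genes. MCM3 measured 146, 145 and 147 CPM with ZNF783 siRNA and 164, 162 and 162 CPM in the controls, a fall to 89.7% of its control level (log2 fold change -0.16, SE 0.03, adjusted p = 7.62e-05). MCM7 stood at 494, 498 and 486 CPM with ZNF783 siRNA and 543, 545 and 523 CPM in the controls (-0.12, SE 0.0252, adjusted p = 0.000176). MCM6 stood at 117, 113 and 119 CPM with ZNF783 siRNA and 129.9, 121 and 126 CPM in the controls (-0.11, SE 0.0339, adjusted p = 0.0107). For these subunits of the helicase ring every siRNA library was below every control. MCM5 measured 128, 133 and 123 CPM with ZNF783 siRNA and 136, 145 and 135 CPM in the controls (-0.11, SE 0.034, adjusted p = 0.00933). MCM2 measured 190.0, 197 and 189 CPM with ZNF783 siRNA and 199, 209 and 200.4 CPM in the controls (-0.08, SE 0.0295, adjusted p = 0.0418). In both genes the highest siRNA library was close to the lowest control, and 23.6% of the exon length of MCM2 overlaps another gene. MCM4, the remaining subunit, was at 434, 444 and 426 CPM with ZNF783 siRNA and 451, 449 and 455 CPM in the controls, and its value of -0.06 did not pass (adjusted p = 0.105) although its groups did not overlap. Among the loaders, CDC6, the ATPase that recruits the ring, fell from 112 ± 2.36 to 103 ± 3.16 CPM (SD, n = 3 each; libraries 103, 99.8 and 106 against 114, 109 and 112; -0.12, SE 0.0343, adjusted p = 0.00786). CDT1, its partner, was at 106, 106 and 103 CPM with ZNF783 siRNA and 104, 106 and 101 CPM in the controls (0.02, adjusted p = 0.703). ORC1, the cell cycle regulated subunit of the origin recognition complex, was at 39.1, 35.6 and 35.2 CPM with ZNF783 siRNA and 37.1, 36.2 and 38.2 CPM in the controls (-0.01, adjusted p = 0.888). The CDT1 and ORC1 groups overlapped, and the licensing genes that fell were CDC6 and MCM2, MCM3, MCM5, MCM6 and MCM7.

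Among helicase activation genes the 2 that passed went in opposite directions (coordinates of genes are those of GENCODE release 29, GRCh38). CDC45 (ENSG00000093009, chromosome 22, 19479459 to 19520612, plus strand), which joins the ring to form the active helicase, measured 61.9, 64.1 and 55.4 CPM with ZNF783 siRNA and 71.2, 66.9 and 71.7 CPM in the controls, a fall to 86.9% of its control level (log2 fold change -0.20, SE 0.0451, adjusted p = 0.000636). GINS4, a subunit of the GINS complex that binds beside CDC45, measured 45.5, 44.1 and 44.2 CPM with ZNF783 siRNA and 37.7, 37.7 and 39.7 CPM in the controls, a rise to 116% of control (0.22, SE 0.0485, adjusted p = 0.000635). Neither gene's groups overlapped. GINS4 has 23.6% of its exon length in common with another gene, so its value is uncertain. The other GINS genes stood at 0.10 for GINS1, -0.10 for GINS2 and 0.12 for GINS3, and MCM10 at -0.09, all with adjusted p-values from 0.0715 to 0.152. The 4 subunits of GINS therefore did not share a direction in their fitted values.

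Of 5 polymerase and primase genes, POLA1 passed. POLA1 (ENSG00000101868, chromosome X, 24693919 to 24996986, plus strand), the catalytic subunit of polymerase alpha, measured 57.8, 56.6 and 59 CPM with ZNF783 siRNA and 64.4, 62.7 and 67.1 CPM in the controls, without overlap (log2 fold change -0.17, SE 0.0423, adjusted p = 0.00239). Its accessory subunit POLA2 had a value of 0.01 with a larger error (SE 0.0973), and the primase subunit PRIM1 stood at 0.14 (adjusted p = 0.0583). Polymerase epsilon's catalytic subunit POLE and its partner POLE2 stood at -0.04 and 0.12, neither passing. Of the 6 clamp and clamp loader genes PCNA fell. PCNA measured 278, 274 and 277 CPM with ZNF783 siRNA and 301, 285 and 289 CPM in the controls (log2 fold change -0.08, SE 0.0273, adjusted p = 0.0276), its 3 siRNA libraries lying just below the lowest control. RFC2 to RFC5 and DSCC1, which load clamps, ranged from -0.06 to 0.05, none passing. FEN1, the nuclease that trims Okazaki fragments, fell with libraries at 149, 148 and 152 CPM with ZNF783 siRNA and 161, 168 and 164 CPM in the controls (-0.14, SE 0.0304, adjusted p = 0.000591), while LIG1, the ligase that seals them, stood at 0.04 (adjusted p = 0.434).

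Among the 5 nucleotide supply genes TK1 and RRM2 fell, and TK1 had the smallest adjusted p of all members. TK1 (ENSG00000167900, chromosome 17, 78174075 to 78187233, minus strand), the salvage kinase for thymidine, measured 110.0, 115 and 109 CPM with ZNF783 siRNA and 134, 132 and 133 CPM in the controls, a fall to 83.6% of its control level (log2 fold change -0.26, SE 0.0327, adjusted p = 4.39e-08). RRM2, the regulated subunit of ribonucleotide reductase, measured 366, 366 and 374 CPM with ZNF783 siRNA and 417, 396 and 398 CPM in the controls (-0.13, SE 0.0264, adjusted p = 0.000141). RRM1, the large subunit of the same enzyme, stood at 0.03 (SE 0.0261, adjusted p = 0.416), so the subunits of this enzyme did not fall together. TYMS, which makes thymidylate, was at 47, 49.9 and 52 CPM with ZNF783 siRNA and 48, 48.8 and 47.1 CPM in the controls (0.04, adjusted p = 0.557). DUT, which removes dUTP, stood at -0.02 (adjusted p = 0.671). The groups of TYMS overlapped.

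Of 4 genes of chromatin assembly and histone mRNA 1 fell. UHRF1 (ENSG00000276043, chromosome 19, 4903080 to 4962154, plus strand), which recruits DNA methyltransferase to replicated DNA, measured 81.8, 78.6 and 76.4 CPM with ZNF783 siRNA and 92.3, 97 and 85.9 CPM in the controls (log2 fold change -0.21, SE 0.0404, adjusted p = 0.000114), all siRNA libraries being below all controls. SLBP was at 170.1, 165 and 164 CPM with ZNF783 siRNA and 166, 166 and 168 CPM in the controls and was among the values nearest to 0 (-0.0023, SE 0.0298, adjusted p = 0.967). The CAF-1 subunits CHAF1A and CHAF1B stood at -0.07 and -0.04, not passing. CLSPN (ENSG00000092853, chromosome 1, 35720218 to 35769967, minus strand), the fork protein claspin that carries the checkpoint signal to CHK1, measured 49.8, 46.8 and 48.4 CPM with ZNF783 siRNA and 56.7, 55 and 57.9 CPM in the controls (log2 fold change -0.23, SE 0.0446, adjusted p = 0.00012), without overlap. CDC25A, the phosphatase that activates CDK2, was at 48.6, 43 and 47.4 CPM with ZNF783 siRNA and 45.7, 45.6 and 44.8 CPM in the controls (0.04, adjusted p = 0.652), with replicate 2 below the controls and the others above.

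The fall did not rest on a single library for 9 of the 14 genes, which were called in each of 6 fits with 1 library left out (CDC45, CLSPN, FEN1, MCM3, MCM7, POLA1, RRM2, TK1 and UHRF1), while CDC6, MCM2, MCM5, MCM6 and PCNA lost their call in at least 1. When every library was corrected for the GC content and length of its genes, 13 of 39 fell (10.8% of all genes) and 3 rose (8.92%): MCM2 (0.01, adjusted p = 0.873), MCM5 (-0.04, adjusted p = 0.35) and MCM7 (-0.04, adjusted p = 0.175) no longer passed, MCM4 and MCM10 fell, and CDT1 (0.17, adjusted p = 2.95e-05) and LIG1 (0.11, adjusted p = 0.017) rose with GINS4. In 1 fit of all 12 libraries 0 of 39 passed (edgeR, 12 with an unadjusted p below 0.05; 4.21% of all genes passed), and with ETS1 siRNA replicate 1 left out of that fit the same 14 fell (11.9% of all genes). Prostate luminal markers moved in the same libraries, 6 of 11 falling, such as KRT8 (-0.26) and KLK3 (-0.51), and their part in the result was not tested. Of the 3 leukocyte, endothelial and fibroblast markers that could be tested, COL1A1 (-0.23) and LUM (-0.26) also fell, and their part was not tested. In bulk samples fewer cells in S phase and less RNA of these genes per cell cannot be told apart.

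The second comparison asked how the replication genes differ when ETS1 is targeted. Over all 6 libraries 0 of 39 passed (edgeR; 0.0461% of 19542 genes passed, 9 in all), with 4 members at an unadjusted p below 0.05. DESeq2 called 0 members too (358 of 19542 genes rose and 376 fell), as did limma-voom. With quality weights, which gave replicate 1 a weight of 0.0931, limma-voom called 8, all higher. In that fit 1813 of 19542 genes rose and 1921 fell. The median log2 fold change was 0.03 against 0.01 for all genes, and values ran from -0.25 for FEN1 to 0.25 for PRIM1. Standard errors of the members had a median of 0.0666, against 0.0383 with ZNF783 siRNA. In 8 of 39 genes all 3 siRNA libraries lay above all 3 controls, against 17.5% of all genes. In 4 they lay below, against 17.8%, so groups without overlap were common among all genes too. The library that stands apart had a member median of -0.09 relative to the control mean, with 17 genes above and 22 below. Replicates 2 and 3 had medians of 0.04 and 0.06, with 26 and 29 of 39 above. The control libraries had 22, 17 and 18 above the same mean, and the share of all genes was not computed.

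Without that library 10 of 39 rose, against 9.96% of all genes tested, and 3 of 39 fell, against 13.0% (2 siRNA libraries against 3 controls, 20237 genes tested). Of the 11 prostate luminal markers 5 fell and 1 rose in the same fit, such as KRT8 (-0.24) and TMPRSS2 (-0.43), and their part in the result was not tested. The largest rise was in CDC25A (ENSG00000164045, chromosome 3, 48157146 to 48188402, minus strand). It measured 51.3, 65.6 and 65.1 CPM with ETS1 siRNA and 55.2, 54.1 and 54.7 CPM in the controls, replicate 1 being below the controls and the others above them; the log2 fold change was 0.15 over 6 libraries (adjusted p = 0.418) and 0.25 without replicate 1 (SE 0.0371, adjusted p = 3.22e-07). CLSPN, the other gene of this role, measured 91.9, 73.9 and 73.4 CPM with ETS1 siRNA and 75.2, 72.6 and 70.8 CPM in the controls and stood at 0.01 without replicate 1, with replicate 1 alone well above the controls.

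In nucleotide supply RRM1 and DUT rose without replicate 1. RRM1 (ENSG00000167325, chromosome 11, 4094707 to 4138876, plus strand) measured 372, 354 and 362 CPM with ETS1 siRNA and 326, 321 and 322 CPM in the controls, with all 3 siRNA libraries above all controls (0.17, adjusted p = 0.176 over 6 libraries; 0.14, SE 0.0282, adjusted p = 8.24e-05 without replicate 1). DUT measured 116, 168 and 160.3 CPM with ETS1 siRNA and 139, 149 and 143 CPM in the controls, with replicate 1 well below and the others above (0.18, SE 0.0316, adjusted p = 8.11e-06 without replicate 1). DUT has 14.5% of its exon length in common with another gene. RRM2 was at 327, 360.2 and 354 CPM with ETS1 siRNA and 362, 375 and 358 CPM in the controls (-0.04, adjusted p = 0.417 without replicate 1). TYMS was at 48.3, 46.2 and 50.8 CPM with ETS1 siRNA and 49.8, 46.3 and 46.4 CPM in the controls (0.02, adjusted p = 0.796). TK1 was at 84, 124 and 129 CPM with ETS1 siRNA and 126, 122 and 128 CPM in the controls (0.01, adjusted p = 0.9). For RRM2 and TK1 the lowest value was that of replicate 1, and the other libraries lay among or next to the controls.

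Of the helicase activation genes CDC45, MCM10 and GINS4 rose without replicate 1. CDC45 measured 97.6, 84.6 and 86 CPM with ETS1 siRNA and 76, 78.4 and 81.7 CPM in the controls, all siRNA libraries being above all controls (0.11, SE 0.0352, adjusted p = 0.0204). MCM10, which helps start the helicase, measured 117, 108 and 111 CPM with ETS1 siRNA and 103, 102 and 99.8 CPM in the controls, also without overlap (0.10, SE 0.0327, adjusted p = 0.0171). GINS4 measured 39.5, 46.5 and 49.5 CPM with ETS1 siRNA and 41.6, 42.3 and 41.9 CPM in the controls, replicate 1 being lowest (0.18, SE 0.0415, adjusted p = 0.000483). Among licensing genes ORC1 rose and MCM7 fell. ORC1 measured 41, 42.2 and 40.9 CPM with ETS1 siRNA and 38.8, 36.8 and 37.7 CPM in the controls (0.13, SE 0.0431, adjusted p = 0.0186), higher in all 3 siRNA libraries. MCM7 measured 417, 562 and 579 CPM with ETS1 siRNA and 599.9, 595 and 633 CPM in the controls (-0.10, SE 0.0287, adjusted p = 0.00575), lower in all 3 and lowest in replicate 1.

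The other licensing genes did not pass. CDC6 was at 131, 131 and 131 CPM with ETS1 siRNA and 128, 124 and 124 CPM in the controls (0.06, adjusted p = 0.212 without replicate 1). CDT1 was at 72.1, 88.1 and 88.6 CPM with ETS1 siRNA and 86.2, 86.9 and 91.8 CPM in the controls (-0.01, adjusted p = 0.89). MCM2 was at 179, 197 and 201 CPM with ETS1 siRNA and 192, 187 and 198 CPM in the controls (0.04, adjusted p = 0.406). In CDT1 and MCM2 replicate 1 was the lowest library, and in CDC6 all siRNA libraries lay slightly above the controls. MCM3 was at 154, 188 and 195 CPM with ETS1 siRNA and 186, 188 and 192 CPM in the controls (0.01, adjusted p = 0.863). MCM4 was at 522, 508 and 518 CPM with ETS1 siRNA and 495, 493 and 492 CPM in the controls (0.05, adjusted p = 0.221). MCM4 was higher in all 3 siRNA libraries, while MCM3 was apart in replicate 1 alone. MCM5 was at 123, 141 and 139 CPM with ETS1 siRNA and 142, 134 and 143 CPM in the controls (-0.0046, adjusted p = 0.945). MCM6 was at 151, 162 and 160.2 CPM with ETS1 siRNA and 153, 153 and 150.2 CPM in the controls (0.08, adjusted p = 0.0553). Both overlapped their controls.

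At the fork, RFC3, RFC4 and PRIM1 rose and POLE and FEN1 fell without replicate 1. RFC3 measured 134, 132 and 134 CPM with ETS1 siRNA and 118, 124 and 121 CPM in the controls, without overlap (0.12, SE 0.0317, adjusted p = 0.00253). RFC4 measured 66.5, 95.5 and 97.2 CPM with ETS1 siRNA and 88.4, 90.8 and 90.3 CPM in the controls (0.09, SE 0.0333, adjusted p = 0.0336), while its fitted value over 6 libraries was -0.05, with replicate 1 far below the controls. PRIM1 measured 47.3, 39.7 and 36.4 CPM with ETS1 siRNA and 36.7, 35.1 and 31.6 CPM in the controls (0.15, SE 0.0537, adjusted p = 0.0493), with replicate 3 below 1 control. The overlap of PRIM1 with another gene covers 21.6% of its exons. POLE measured 182, 197 and 191 CPM with ETS1 siRNA and 206, 202 and 209 CPM in the controls (-0.10, SE 0.0298, adjusted p = 0.0134), lower in all 3. FEN1 measured 117, 179 and 183 CPM with ETS1 siRNA and 187, 194 and 189.9 CPM in the controls (-0.08, SE 0.03, adjusted p = 0.0474), also lower in all 3. Neither PCNA nor SLBP passed. PCNA was at 269, 345 and 349 CPM with ETS1 siRNA and 328, 336 and 327 CPM in the controls (0.07, adjusted p = 0.0826). SLBP was at 215, 204 and 202 CPM with ETS1 siRNA and 204, 206 and 200.3 CPM in the controls (-0.01, adjusted p = 0.863). In PCNA replicate 1 was far below the controls and the others above them, while SLBP differed little.

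With replicate 1 left out and the GC and length correction added, 15 of 39 rose (9.11% of all genes) and 0 fell. Of the 10 genes above 7 rose again (CDC25A, CDC45, DUT, GINS4, ORC1, RFC4 and RRM1), MCM10, PRIM1 and RFC3 did not pass, and CDT1 (0.12, adjusted p = 0.00106), MCM2 (0.13, adjusted p = 4.72e-05), MCM4, MCM5, TK1, CHAF1A, CHAF1B and UHRF1 rose as well. MCM7 (-0.02, adjusted p = 0.678), POLE (-0.04, adjusted p = 0.329) and FEN1 (-0.03, adjusted p = 0.496) then no longer passed.

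**Figure D3:**
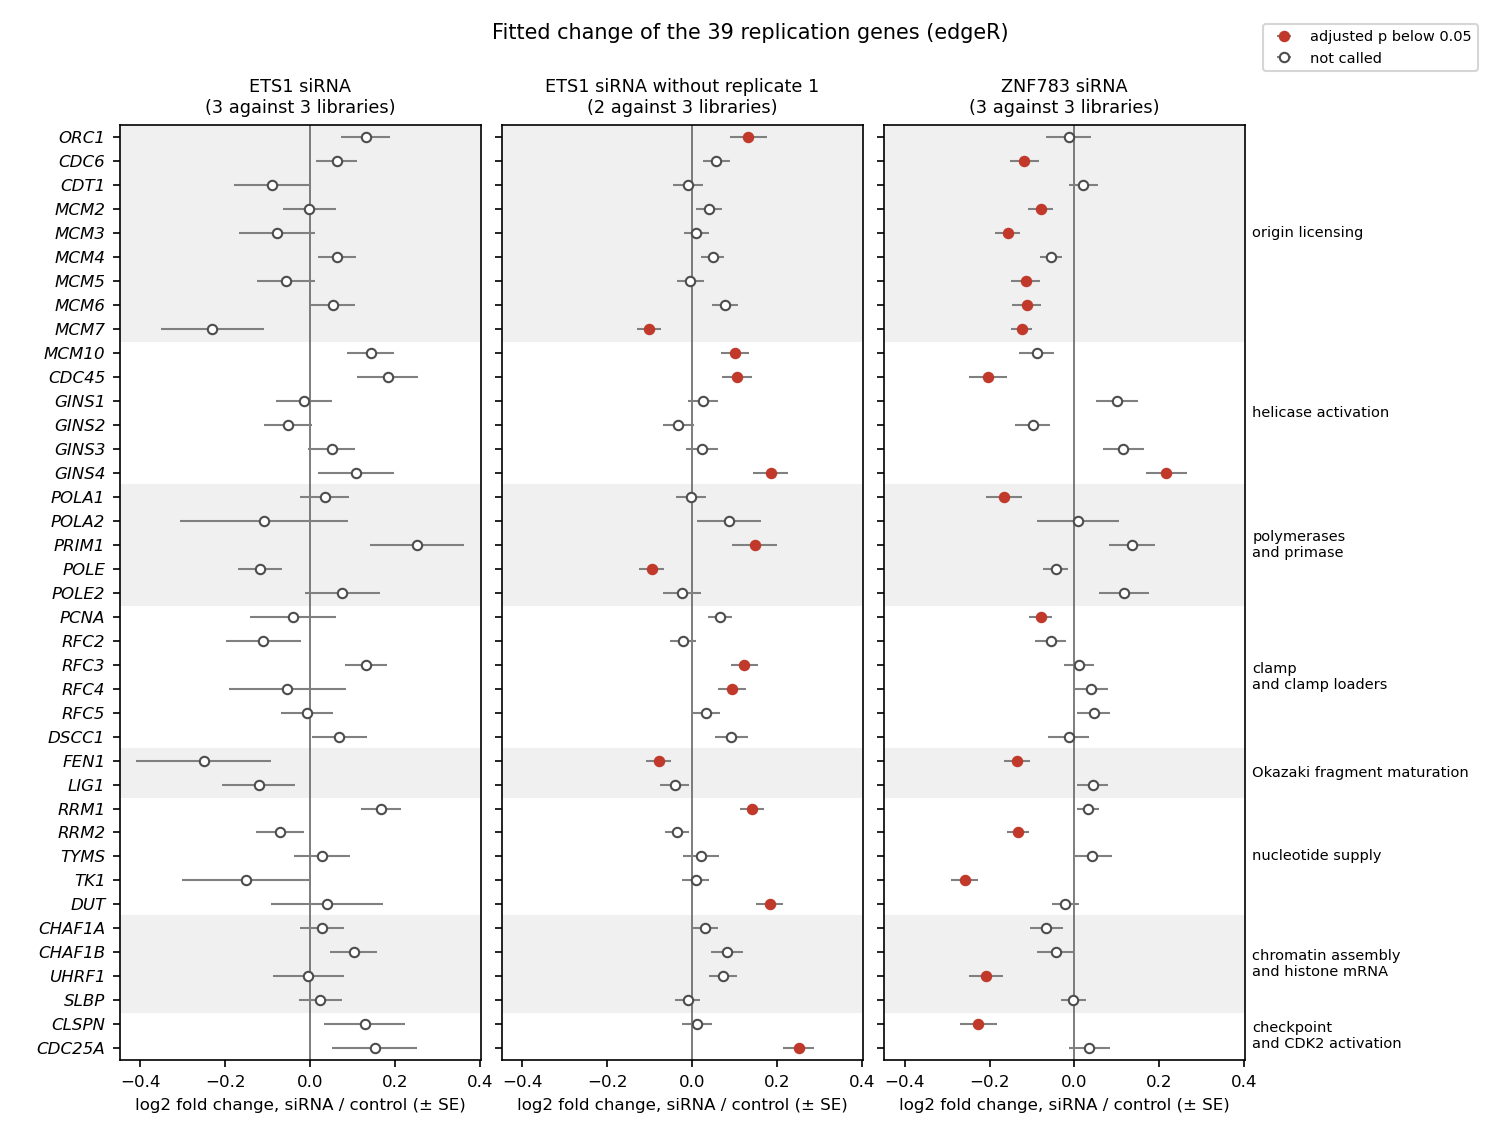
Fitted log2 fold change (± SE, edgeR) of the 39 genes by role, with ETS1 siRNA over all 6 libraries (left), with ETS1 siRNA without replicate 1 (middle) and with ZNF783 siRNA (right); filled red points passed an adjusted p below 0.05. No gene passes on the left, 10 higher and 3 lower in the middle, and 1 higher and 14 lower on the right.

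The effects of the siRNAs, each against its own controls, were then compared directly, as the ZNF783 effect minus the ETS1 effect. In 1 fit of 12 libraries 0 of 39 differences passed (edgeR, 1.68% of 19594 genes passed; 10 members had an unadjusted p below 0.05, and limma-voom called 0 and DESeq2 1), the smallest adjusted p being that of CDC45 (-0.40, SE 0.0977, adjusted p = 0.0571). Without ETS1 siRNA replicate 1, 14 of 39 differences were lower with ZNF783 siRNA, against 6.25% of all genes, and 0 were higher. They were those of CDC25A, CDC45, CDC6, CLSPN, DUT, MCM10, MCM3, MCM4, MCM6, PCNA, POLA1, RRM1, TK1 and UHRF1. All 14 held with the GC and length correction, when 17 were lower, against 1494 of 19439 genes. The difference was -0.31 for CDC45 (SE 0.0582, adjusted p = 0.000128). It was -0.28 for UHRF1 (adjusted p = 7.73e-05) and -0.27 for TK1 (adjusted p = 1.84e-05). Without the GC and length correction, CDC45 was the 1 gene that fell with ZNF783 siRNA and rose with ETS1 siRNA without replicate 1. With the correction in both fits 4 genes did so: CDC45, TK1 (-0.13 and 0.13), UHRF1 (-0.16 and 0.13) and MCM4 (-0.06 and 0.06). FEN1 and MCM7 fell in both and GINS4 rose in both without the correction, with ETS1 siRNA replicate 1 left out. The differences for these did not pass: -0.06 for FEN1 (adjusted p = 0.439), -0.02 for MCM7 (adjusted p = 0.794) and 0.03 for GINS4 (adjusted p = 0.817). With the correction in both fits GINS4 rose again in both, FEN1 fell with ZNF783 siRNA alone and MCM7 passed in neither.

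Other genes of the same pathway were read against all genes tested, of which 11.3% rose and 13.8% fell with ZNF783 siRNA. Of 49 further replication genes, such as the ORC2 to ORC6, RPA and polymerase delta subunits, 6 rose and 7 fell, shares close to those of all genes, with a median of 0.03. DNMT1, the maintenance DNA methyltransferase recruited by UHRF1, fell (-0.23, adjusted p = 4.84e-09), as did the polymerase delta subunit POLD1 (-0.19, adjusted p = 0.000206) and the helicase RECQL4 (-0.13, adjusted p = 0.00272), while TOPBP1, which activates the checkpoint kinase ATR, rose (0.13, adjusted p = 0.000566). Of 22 RB and E2F genes 7 rose and 5 fell, against the same 11.3% and 13.8%. E2F1, the activating factor, fell (91.1, 87.9 and 87.3 CPM against 106, 108 and 107; -0.26, adjusted p = 1e-07), RB1 rose (111, 118 and 122 CPM against 107, 99.8 and 101; 0.18, adjusted p = 0.000136), and RBL2, an RB relative, rose (0.19, adjusted p = 1.05e-05). CCNA2, which encodes cyclin A2, rose (0.23, adjusted p = 5.06e-08) and E2F4, the factor that works with RB relatives, fell (-0.23, adjusted p = 1.31e-05). Of 40 genes of G2 and mitosis, the later part of the cycle, 27 rose and 0 fell, against 11.3% and 13.8% of all genes, with a median of 0.19. The 4 with the smallest adjusted p were CENPF (0.31), HMMR (0.46), NDC80 (0.35) and ANLN (0.23). In the same libraries the median of the 39 replication genes was -0.04. DESeq2 called 25 of the 40, 3 of the 22 and 3 of the 49 higher, against 1237 of 17630 genes. It called 0, 4 and 4 lower, against 1481. With the GC and length correction 27, 4 and 2 rose and 1, 4 and 4 fell, against 1539 and 1862 of 17254. In 1 fit of all 12 libraries 8, 1 and 0 rose and 0, 2 and 1 fell, against 297 and 527 of 19594.

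With ETS1 siRNA 0 genes of these lists passed over all 6 libraries (edgeR; 10 of 49, 4 of 22 and 17 of 40 had an unadjusted p below 0.05, and DESeq2 called 2, 1 and 2). Without replicate 1, when 9.96% of all genes rose and 13.0% fell, 12 of the 49 further replication genes rose and 3 fell, with a median of 0.04. ATAD5, which unloads PCNA, rose (0.32, adjusted p = 1.16e-08) and the histone chaperone gene ASF1B fell (-0.20, adjusted p = 4.24e-06). Of the 22 RB and E2F genes 6 rose and 2 fell. RBL1, an RB relative, measured 53.1, 44.9 and 43.4 CPM with ETS1 siRNA and 33.2, 34.4 and 32.5 CPM in the controls and rose (0.40, adjusted p = 9.24e-11), E2F1 rose (0.14, adjusted p = 0.00142), and RB1 rose slightly (0.10, adjusted p = 0.0233). In the G2 and mitosis list 21 of 40 genes rose while 1 fell, with a median of 0.09. E2F1 thus fell with ZNF783 siRNA and rose with ETS1 siRNA without replicate 1, and that difference passed without replicate 1 (-0.40, adjusted p = 5.53e-09) but not over all 12 libraries (-0.30, adjusted p = 0.264).

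**Figure D4:**
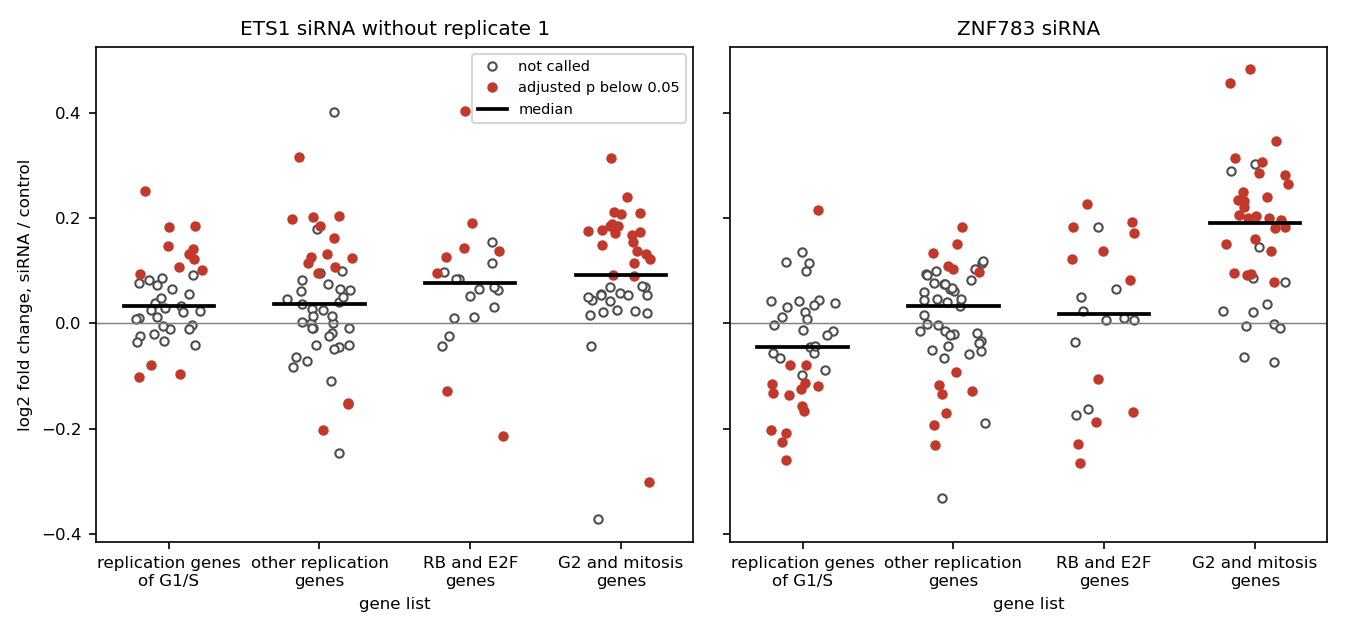
Log2 fold change (edgeR) of each gene in 4 lists with ETS1 siRNA without replicate 1 (left) and with ZNF783 siRNA (right); filled red points passed an adjusted p below 0.05 and bars are medians. With ZNF783 siRNA the 39 replication genes have a median of -0.04 while the G2 and mitosis genes have a median of 0.19.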

How the data were processed

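RNA was sequenced from 12 libraries of 22RV1 cells made from total RNA with a directional kit, per the labels' protocols. Each experiment has its own table of deposited raw counts, made with featureCounts 2.0.1 over exons of an Ensembl release 107 annotation of GRCh38 with no strand option, per the file headers. No source used here gives the version of the aligner.

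Groups and replicate numbers came from the labels. The members and all gene lists were chosen with earlier results of these data known. Genes named with values in every library are 16 central members plus each member called in a comparison, or called once the library that stands apart was left out; of other lists up to 4 genes with the smallest adjusted p are named. The siRNA libraries of an experiment were compared with its controls in edgeR 4.0.16 (R 4.3.3): default expression filter, TMM, robust quasi-likelihood F test on all genes, Benjamini-Hochberg adjustment over all genes tested. The difference between the siRNA effects was a contrast in 1 fit of 12 libraries. The edgeR fit of each siRNA against its controls was tested on simulated counts, which held no outlying library and no GC effect. The other fits were not tested in this way. The floor of 3 counts corresponds to 0.0612 to 0.222 CPM, for counting error only. Exon lengths were planned to come from the tables and came from GENCODE release 29 instead, which also gave GC content and length for a correction by splines with 5 and 4 degrees of freedom in each library. Alternatives were DESeq2 1.42.0, limma-voom (limma 3.58.1) with and without quality weights, other size factors and filters, the replicate number as a block, the GC and length correction, 1 fit of all libraries, and leaving out each library. The fit of 11 libraries and the fits without ETS1 siRNA replicate 1 that also carried the correction were chosen after seeing the data.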

Additional observations from a re-analysis of the deposited data

Results flagged for a closer look

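The effects of the siRNAs on the replication genes were compared in a direct test, as the ZNF783 effect minus the ETS1 effect. Without ETS1 siRNA replicate 1, 14 of the 39 differences were lower (edgeR), against 6.25% of all genes tested. Over all 12 libraries 0 of 39 passed, against 1.68% of all genes (1 member with DESeq2 and 2 with no expression filter).

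Over all 12 libraries the difference between the siRNA effects passed for 330 of 19594 genes. Among the genes of the other lists it passed for DNMT1 at -0.37 (adjusted p = 0.00393, edgeR) and for FOLH1. DNMT1 measured 355, 334 and 343 CPM with ETS1 siRNA against 317, 311 and 318 in its controls, and 269, 272 and 264 CPM with ZNF783 siRNA against 313, 318 and 314. FOLH1, a luminal marker that encodes prostate-specific membrane antigen, differed by -0.36 (adjusted p = 0.00839, edgeR), with 124, 131 and 123 CPM with ZNF783 siRNA against 149.8, 139 and 148 in its controls. In both genes the ETS1 siRNA libraries lay above their controls and the ZNF783 siRNA libraries below theirs.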

How the results depend on the processing

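With ETS1 siRNA 0 of 39 members were called in the fit reported and under other filters, size factors, DESeq2, limma-voom and the GC and length correction alone. The count was 13 without ETS1 siRNA replicate 1 and 13 in 1 fit of 11 libraries, 15 when that library was left out of the corrected fit (GC and length), 8 with limma-voom and quality weights, which gave that library a weight of 0.0931, and 1 in the fit of all 12 libraries. Leaving out each library gave 0 to 13. Without replicate 1, 2016 of all 20237 genes tested rose and 2633 fell, and with the correction added 1788 and 2185 of 19622. With quality weights 1813 rose and 1921 fell of 19542, and in the fit of all 12 libraries 975 and 900 of 19594. With ZNF783 siRNA 15 were called, 10 with DESeq2 and 0 in the fit of all 12 libraries. Leaving out each library gave 11 to 15. Over all genes 1993 rose and 2435 fell of 17630 in the fit reported, and 1237 and 1481 with DESeq2. In the fit of all 12 libraries 297 rose and 527 fell of 19594. For the difference 0 were called in the fit reported, 1 with DESeq2, 2 with no expression filter, 14 when ETS1 siRNA replicate 1 was left out and 17 when that fit was also corrected, while leaving out each library gave 0 to 14. Over all genes 113 differences were higher and 217 lower of 19594 in the fit reported. Without replicate 1 they were 1484 and 1251 of 20018, and 1686 and 1494 of 19439 when also corrected. The cause of the changes in these counts was not tested.

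A sign was counted as turned where the gene was called in either fit or both values exceeded their standard error. With ETS1 siRNA CDT1 turned to 0.16 with the GC and length correction and 0.16 with the replicate block as well. It turned to 0.12 with the correction and replicate 1 left out. TK1 turned to 0.0718, 0.0691 and 0.13 under the same settings. MCM2 (0.13), MCM5 (0.0738) and UHRF1 (0.13) turned in the corrected fit without replicate 1. RFC4 turned to 0.0925 in the fit of 11 libraries and 0.0819 in the corrected fit without replicate 1, and leaving out each library gave it -0.15 to 0.0936. With ZNF783 siRNA MCM2 stood at 0.0079 with the correction and 0.0081 with the block as well; the cause was not tested. Of single-gene values, 424 with ETS1 siRNA, 327 with ZNF783 siRNA and 384 for the difference kept their direction and their side of the threshold.

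Same-numbered libraries did not deviate together (correlations of 0.09, -0.23 and 0.29 in the ETS1 experiment and -0.08, -0.05 and -0.05 in the ZNF783 experiment), so the numbers were not taken as pairs. With the replicate block 0 members were called with ETS1 siRNA, 15 with ZNF783 siRNA and 0 for the difference.

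Every member had at least 133 counts in every library. The median SD of a member was 6.90% of its mean in the ETS1 siRNA group and 2.31 to 2.87% in the other groups.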
